A study of Homo sapiens with 2 samples.

Results

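The regions described here are arrays of regularly spaced nucleosomes: 4765 stretches of the human genome in which 5 or more called nucleosome positions followed each other at distances of 160 to 220 bp. They were chosen by those distances from a map of ARPE-19, an established line of retinal pigment epithelial cells of human origin, grown in medium with 20% serum, labelled as normal culture and in interphase, with no treatment and no second condition. The map came from MNase-seq, in which micrococcal nuclease digests the DNA between nucleosomes and the protected fragments, here released in 5 min at 37 °C and cut from a gel at about 150 bp, are sequenced. The labels list 2 samples, batches 1 and 2, but the authors deposited 1 list of single-base positions that names neither batch, so no value per batch, no spread between batches and no test across samples could be given. The read depth behind the list is unknown. A list of positions carries no expression values, so the labelled cell type could not be checked against marker genes.

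A nucleosome is DNA wrapped around an octamer of histones, and successive nucleosomes are joined by linker DNA. The distance from one nucleosome centre to the next is called the repeat length. Regular arrays are known from the sequence beside fixed barriers such as bound CTCF, a zinc-finger protein that shapes chromatin loops, and from the sequence downstream of active transcription start sites, where chromatin remodelers such as SMARCA5, CHD1 and INO80 space the nucleosomes.

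On chromosomes 1 to 22 the list held 2558490 distinct positions. Positions under 100 bp apart were merged into their midpoint, which left 2265339 points. Of these, 26792 points, or 1.18% (95% Wilson interval 1.17 to 1.20%, counting error only), lay in an array. Array points come in groups of at least 5 neighbours, and the interval treats each point as separate, so it is too narrow. Over chromosomes the SD of this share was 0.474 percentage points. The arrays covered 4.15 Mb from first to last point, which is 0.151% of the determined bases, with a median span of 776 bp and a longest span of 4298 bp. All coordinates and sequences below are of the hg38 reference.

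The sequences under the arrays were of different kinds, and a few are shown because later results turn on them. The most regular array of at least 7 points lay in AT-rich sequence on chromosome 19. The next 300 bases are its first footprint, linker and following footprint, at chr19:24375623-24375922 on the plus strand, and capitals mark the 147 bases centred on a point, the length a nucleosome protects, with the last footprint shown in part.
most regular array: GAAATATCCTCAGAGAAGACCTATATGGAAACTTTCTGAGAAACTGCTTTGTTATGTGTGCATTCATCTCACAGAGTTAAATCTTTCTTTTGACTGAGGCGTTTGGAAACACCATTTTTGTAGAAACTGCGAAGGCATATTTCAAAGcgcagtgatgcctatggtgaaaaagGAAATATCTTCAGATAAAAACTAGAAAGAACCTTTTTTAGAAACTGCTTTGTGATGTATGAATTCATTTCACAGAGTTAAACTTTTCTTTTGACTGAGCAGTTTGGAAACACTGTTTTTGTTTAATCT
For comparison, the arrays of 13 points in INS and in STAB1 lay in GC-rich sequence of genes. The INS stretch is chr11:2160534-2160833 on the minus strand, the strand of the gene, and the STAB1 stretch is chr3:52510106-52510405 on the plus strand, with capitals as before.
INS array: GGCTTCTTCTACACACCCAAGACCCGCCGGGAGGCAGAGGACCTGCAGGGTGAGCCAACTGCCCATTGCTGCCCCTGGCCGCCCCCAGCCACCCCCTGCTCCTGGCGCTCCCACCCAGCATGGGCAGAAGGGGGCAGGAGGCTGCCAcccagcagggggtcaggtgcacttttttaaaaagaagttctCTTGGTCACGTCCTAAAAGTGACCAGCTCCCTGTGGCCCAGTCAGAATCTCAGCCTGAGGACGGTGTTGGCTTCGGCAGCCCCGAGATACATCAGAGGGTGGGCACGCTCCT
STAB1 array: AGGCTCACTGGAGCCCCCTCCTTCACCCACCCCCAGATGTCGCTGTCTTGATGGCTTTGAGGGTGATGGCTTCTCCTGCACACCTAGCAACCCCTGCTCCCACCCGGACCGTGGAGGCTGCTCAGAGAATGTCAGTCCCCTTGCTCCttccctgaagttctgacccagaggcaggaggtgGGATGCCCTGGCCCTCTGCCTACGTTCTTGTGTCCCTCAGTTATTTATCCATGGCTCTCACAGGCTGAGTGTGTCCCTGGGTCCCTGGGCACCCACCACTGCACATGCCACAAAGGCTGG

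Some arrays lay on tandemly repeated sequence, in which a unit of about the length of the repeat recurs, in copies that are alike to different degrees. Successive units of 3 such arrays are aligned here, on the plus strand, and capitals mark the bases shared by all units shown of that array. The first is the array with the highest identity to itself, on chromosome 18, with 3 units of 171 bp at chr18:15404393-15404563, chr18:15404564-15404734 and chr18:15404735-15404905, which shared 131 of 171 bases (76.6%).
chromosome 18 unit 1: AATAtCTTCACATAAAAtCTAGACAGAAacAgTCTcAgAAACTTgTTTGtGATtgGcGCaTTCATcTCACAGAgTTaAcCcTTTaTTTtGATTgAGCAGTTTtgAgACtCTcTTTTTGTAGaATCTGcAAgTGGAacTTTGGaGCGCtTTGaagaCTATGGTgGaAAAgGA
chromosome 18 unit 2: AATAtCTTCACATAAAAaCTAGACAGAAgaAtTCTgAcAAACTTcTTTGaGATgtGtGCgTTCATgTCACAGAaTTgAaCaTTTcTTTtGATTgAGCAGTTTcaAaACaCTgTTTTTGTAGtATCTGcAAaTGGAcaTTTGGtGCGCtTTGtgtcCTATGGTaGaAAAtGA
chromosome 18 unit 3: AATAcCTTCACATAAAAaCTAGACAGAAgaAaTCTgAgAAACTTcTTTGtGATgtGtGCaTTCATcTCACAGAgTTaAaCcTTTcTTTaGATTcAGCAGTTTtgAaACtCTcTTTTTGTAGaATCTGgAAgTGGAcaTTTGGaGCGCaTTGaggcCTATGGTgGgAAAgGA
The second is the longest array, on chromosome 12, with 3 units of 188 bp at chr12:34371542-34371729, chr12:34371730-34371917 and chr12:34371918-34372105, which shared 81 of 188 bases (43.1%).
chromosome 12 unit 1: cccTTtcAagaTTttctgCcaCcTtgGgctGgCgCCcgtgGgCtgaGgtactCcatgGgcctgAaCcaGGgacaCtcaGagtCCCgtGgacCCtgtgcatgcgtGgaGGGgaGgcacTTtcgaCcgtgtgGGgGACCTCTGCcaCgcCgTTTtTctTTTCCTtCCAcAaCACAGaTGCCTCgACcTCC
chromosome 12 unit 2: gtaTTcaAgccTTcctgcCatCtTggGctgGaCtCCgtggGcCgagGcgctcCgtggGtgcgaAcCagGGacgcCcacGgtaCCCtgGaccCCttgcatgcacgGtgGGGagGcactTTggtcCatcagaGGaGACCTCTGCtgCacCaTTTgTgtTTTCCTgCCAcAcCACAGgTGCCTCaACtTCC
chromosome 12 unit 3: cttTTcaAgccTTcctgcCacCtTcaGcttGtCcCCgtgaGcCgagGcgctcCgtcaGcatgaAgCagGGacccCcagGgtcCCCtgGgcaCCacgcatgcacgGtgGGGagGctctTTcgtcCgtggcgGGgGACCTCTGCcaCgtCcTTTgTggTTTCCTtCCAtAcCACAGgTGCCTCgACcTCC
The third lies inside the coding sequence of MUC17, a membrane-bound mucin, with 2 units of 177 bp at chr7:101032082-101032258 and chr7:101032259-101032435, which shared 140 of 177 bases (79.1%).
MUC17 unit 1: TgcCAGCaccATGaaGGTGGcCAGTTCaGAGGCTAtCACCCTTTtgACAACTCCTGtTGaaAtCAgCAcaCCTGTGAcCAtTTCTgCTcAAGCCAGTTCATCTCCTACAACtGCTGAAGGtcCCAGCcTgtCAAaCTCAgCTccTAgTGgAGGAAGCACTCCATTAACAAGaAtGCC
MUC17 unit 2: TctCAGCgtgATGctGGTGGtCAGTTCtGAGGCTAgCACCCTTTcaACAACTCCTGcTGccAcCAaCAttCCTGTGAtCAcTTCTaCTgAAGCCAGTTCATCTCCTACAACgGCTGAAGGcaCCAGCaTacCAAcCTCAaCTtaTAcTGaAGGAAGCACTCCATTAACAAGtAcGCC
In the chromosome 12 units, 43 of the last 60 bases were shared against 38 of the 128 before them. In the chromosome 18 units the same counts were 45 of 60 and 86 of 111, so sharing there was spread along the unit.

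Most arrays were short. Runs of exactly 5 points numbered 3045, runs of 6 numbered 1045, runs of 7 numbered 395, runs of 8 numbered 152 and runs of 9 numbered 61. A further 67 arrays had 10 or more points, and the longest had 24. Just outside the rule, 9958 runs had 4 points, 40143 had 3 and 211544 had 2. At the bounds on distance, 19094 distances of 160 to 164 bp counted as in range against 14908 of 155 to 159 bp that did not, and 17136 distances of 216 to 220 bp counted against 14600 of 221 to 225 bp.

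These run lengths were set beside the number that the same distances give when their order is ignored. For each chromosome the mean number of runs over all possible orders of its own distances was computed exactly, with nothing drawn at random. That mean was 1108 arrays over the genome, so the observed order held 4.30 times as many (SD over chromosomes 0.817). The ratio grew with length: 675 runs of at least 7 points stood against a mean of 29.5, and 67 runs of at least 10 points against 0.148. For runs of at least 2 points the ratio was 0.916, that is, 266410 separate runs against a mean of 290759, because the same 343731 distances in range were gathered into fewer and longer runs. Where distances were reordered only within 1-Mb windows, which keeps the local density of points, the mean was 1629 arrays and the ratio 2.92. Within 100-kb windows the ratio was 2.29.

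**Figure D1:**
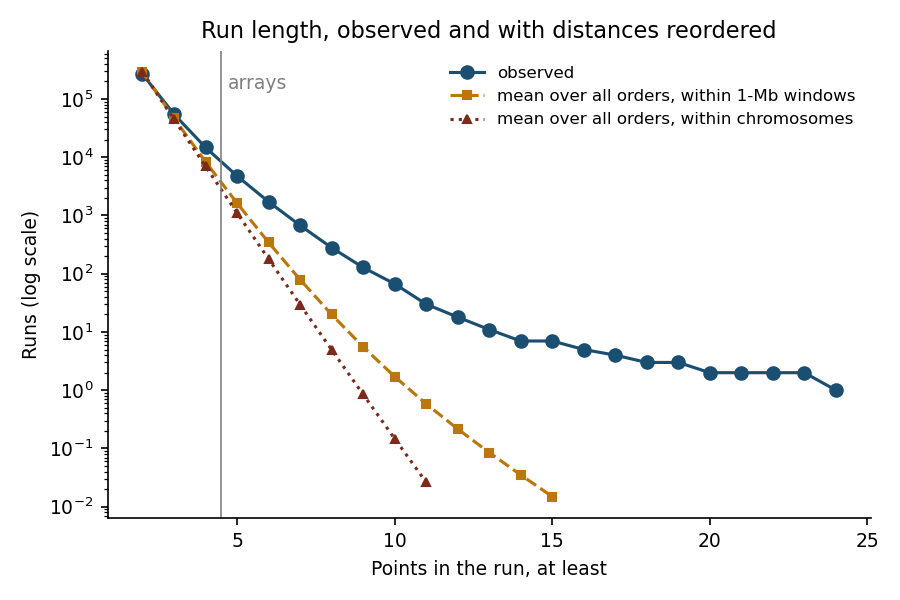
Number of runs with at least the number of points on the x axis (log y axis), as observed and as the mean over all orders of the same distances within chromosomes or within 1-Mb windows. The observed curve leaves both means from 4 points upwards, and the arrays lie right of the grey line.

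The same property can be read point by point. Over the whole list 15.2% of distances were in range. After 1 distance in range the next one was in range in 22.5% of cases, after 2 in 29.0%, after 3 in 34.4% and after 4, the length of the shortest array, in 38.4%. After 11 in a row it was in range in 73.1% of 67 cases. These cases are steps of only 18 arrays with at least 12 points, 8 of them on tandem sequence at 40% identity. Longer arrays give more of the cases, and the longest lie on tandem sequence of chromosome 12. The shares were not computed without tandem sequence, so the rise at long runs describes the whole list only.

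The longest arrays were dominated by 1 place. The array of 24 points lay at chr12:34371615-34375913, between genes, with a mean distance of 186.9 bp ± 6.80 (SD, 23 distances), and successive distances were 195, 181, 190, 191, 187 and 190 bp at its start. The arrays of 23, 19, 17 and 16 points lay within the same stretch of chromosome 12, and the one of 19 points had the smaller spread, 187.3 bp ± 3.75 (18 distances). The nearest protein-coding start site, that of ALG10, was 333006 bp from the closest of these 5 arrays. They are close to the centromere of the chromosome.

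Of the other 5 among the 10 longest, 2 were on AT-rich tandem sequence. The array of 15 points at chr19:24376886-24379330 had a mean distance of 174.6 bp ± 5.18 (14 distances), and the array of 13 points at chr7:61795347-61797453 had 175.5 bp ± 12.4 (12 distances). Both repeat lengths lie well below those of the other 3, which were in genes. PTP4A3, which encodes a protein tyrosine phosphatase, held 15 points at chr8:141426172-141428802 with a mean distance of 187.9 bp ± 10.3 (14 distances). STAB1, which encodes the scavenger receptor stabilin-1, held 13 points at chr3:52510179-52512509 with 194.2 bp ± 10.6 (12 distances), of which 3 fell in exons. INS, the insulin gene, held the remaining array of 13 points, at chr11:2158780-2161132, with a mean distance of 196.0 bp ± 8.78 (12 distances).

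The INS array read against the gene as follows. The gene lies on the minus strand, and the first point was 77 bp downstream of its start site and the last 2429 bp downstream, past the end of INS and inside the body of the read-through gene INS-IGF2. From the downstream end towards the start site the distances were 197, 196, 203, 205, 193, 205, 189, 191, 213, 188, 186 and 186 bp. The spacing was thus shorter at the start site than further in. On the start-site side the next called point was 154 bp away, just under the lower bound of the rule, and on the other side the next one was 942 bp away. Of the 13 points, 6 were merged from several positions, and all 13 had a 32-base sequence at their centre that occurs once in the reference.

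The list of the longest arrays outside tandem sequence was drawn up after the values were seen. After PTP4A3, INS and STAB1 it held 1 intergenic array of 13 points at chr8:142410538-142412840 and 6 arrays of 12 points. Of the latter, 4 were in genes: TCEA2, a transcription elongation factor, THPO, the megakaryocyte growth factor thrombopoietin, LCK, a Src-family kinase of T cells, and ADGRD2, an adhesion G protein-coupled receptor. Their mean distances ranged from 190.0 bp in ADGRD2 to 195.0 bp in TCEA2. The LCK array had distances of 197, 190, 211, 175, 179, 187, 180, 208, 199, 210 and 180 bp, from 175 to 211 bp, a wider range than the 178 to 193 bp of the 19-point array on chromosome 12. Among arrays of 11 points, 1 lay in PECAM1, an adhesion molecule of endothelial cells and platelets, with 189.3 bp ± 11.1 (10 distances), and 9 of its points were in exons with none in coding sequence. Others of 11 points were in SPOCK2, a proteoglycan of the extracellular matrix, in FAM166C and in RAB6B, a small GTPase of vesicle transport.

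**Figure D2:**
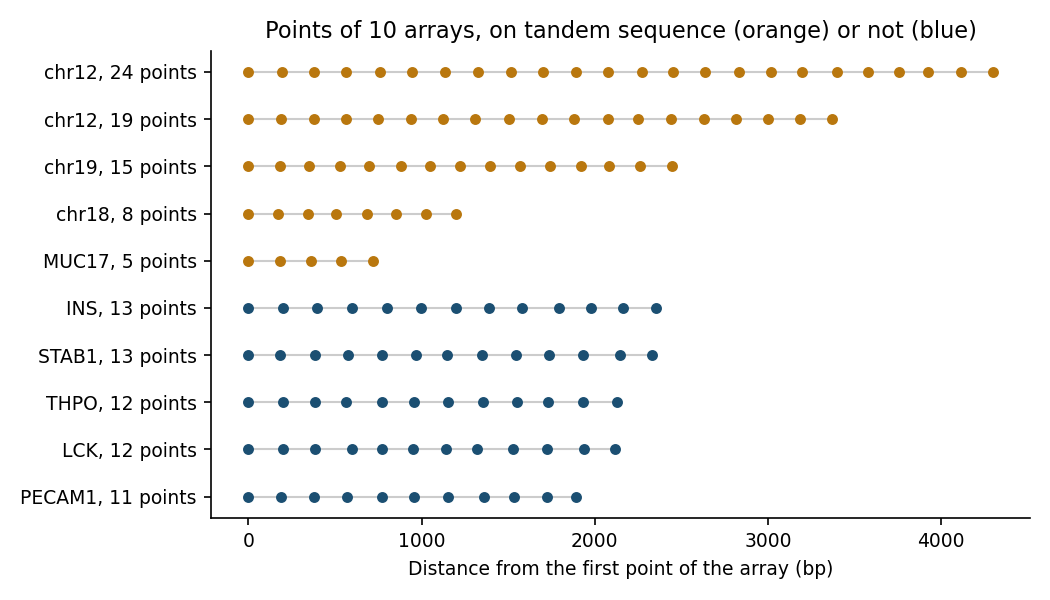
Points of 10 arrays placed by their distance in bp from the first point of the array; orange arrays lie on tandem sequence and blue ones do not. The chromosome 19, chromosome 18 and MUC17 arrays are packed more tightly (175, 172 and 180 bp per step) than INS (196 bp) and STAB1 (194 bp).

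Gaps from the end of an array to the next called point of any kind had maxima near multiples of the repeat length. At the ends of arrays, 24.2% of 9530 gaps to the next point were 320 to 440 bp long, about the length of a pair of repeats, with the most frequent gap at 374 bp. Further maxima were at 556 and 744 bp. The same share was 20.8% at the ends of runs of 3 or 4 points and 16.9% at the ends of runs of 2. Gaps were also shorter beside longer runs, with medians of 509 bp at arrays, 589 bp at runs of 3 or 4 and 721 bp at runs of 2. The part of this in the shares was not tested. In 25 places a gap of that length joined an array to a second one. The largest pair, on chromosome 12, had 31 points over 5803 bp. A pair at chr10:46574901-46578674 had 20 points over 3773 bp and lay mostly upstream of SYT15, a synaptotagmin, with its last 3 points in the gene. Of pairs wholly in genes, that in RAB6B had 17 points over 3278 bp and that in SH2D7 had 16 points over 3129 bp. A gap under 160 bp, too short for the rule, ended an array in 8.05% of cases against 4.54% for runs of 2.

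**Figure D3:**
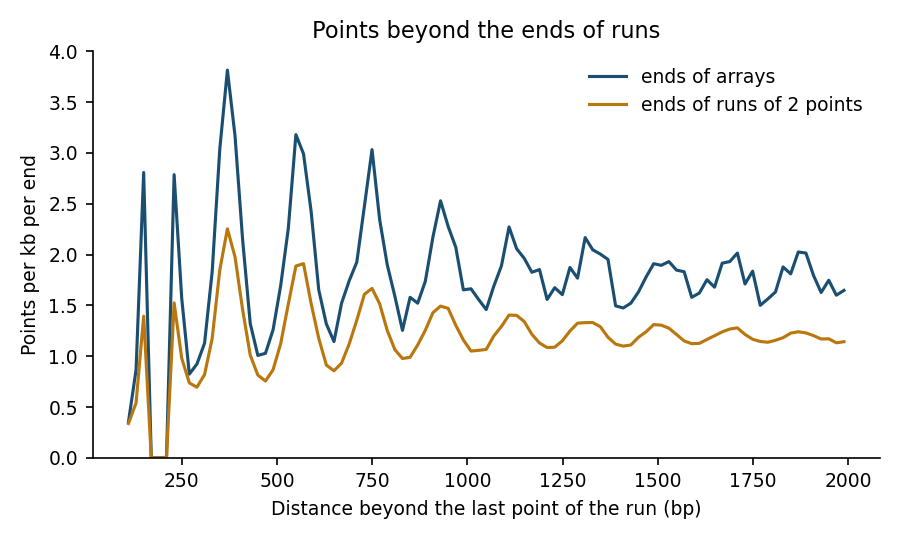
Called points per kb beyond the ends of arrays and of runs of 2 points, in 20-bp steps of distance from the last point; distances of 160 to 220 bp are empty because the rule ends a run there. Maxima near 370, 550 and 750 bp stand at 3.81, 3.18 and 3.03 points per kb for arrays, against 2.25, 1.91 and 1.67 for runs of 2. The lows between them are also higher for arrays, such as 1.01 against 0.814 at 440 to 459 bp.

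The repeat length was narrow. The median over arrays of the mean distance was 188.6 bp, and 5% of arrays were below 176.5 bp and 5% above 199.25 bp. Since the rule admits only distances of 160 to 220 bp, this is a description within those bounds. By chromosome the median was 188.55 bp ± 0.939 (SD, n = 22 chromosomes), from 186.675 bp on chromosome 13 to 190.3 bp on chromosome 4. Arrays of tandem sequence aside, the median was 188.8 bp in arrays wholly in genes, 188.6 bp in those wholly between genes and 190.75 bp in the 87 with a point in a promoter (within 1000 bp of a protein-coding start site). In 3 equal classes of GC content it was 188.5, 188.6 and 189.25 bp. These medians lie within a few bp of each other, and the spread of single arrays is larger, with an SD of 6.44 bp.

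Within an array, single distances varied by a median SD of 14.2 bp. The SD of the distance between points 1, 2, 3 and 4 steps apart was 14.9, 20.1, 24.3 and 28.6 bp. If successive distances were unrelated, it would be 21.04, 25.8 and 29.8 bp at 2, 3 and 4 steps. The correlation of successive distances was r = -0.0766 over 17262 pairs of the same list, which share points and are given as a description. All these values come from distances that the rule bounds at 160 and 220 bp, so they describe the chosen arrays only.

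Tandem sequence was measured as the identity of an array's sequence with itself, shifted by the best lag of 160 to 220 bp. At the identity of 70% set for the main count, 28 arrays were on tandem sequence. Few arrays, 22, lay between 35 and 40%, and at a threshold of 40%, chosen after this was seen, there were 190 (3.99%, interval 3.47 to 4.58%). The share was 1.90% for runs of 4 points and 1.55% for runs of 3. Among the 67 arrays of at least 10 points it was 26.9% (18 arrays), and among the 7 of at least 15 points it was 6 of 7. Copies of a tandem repeat are hard to tell apart by short reads, and how the authors treated reads with several matches is not given in the sources used here.

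The tandem arrays fell into 2 main kinds, whose limits on lag and GC content were set after the values were seen. The first held 135 arrays on 16 chromosomes with a lag under 180 bp and a GC content under 42% (median 36.4%). Their median repeat length was 173.25 bp, and 56.4% of their points had a 32-base centre that occurs once in the reference. Alpha satellite, the repeat of human centromeres, has a unit of about this length; the sequences were not matched to a repeat library here. The second held 43 arrays with a GC content over 55%, of which 30 lay between 34 and 35 Mb of chromosome 12 and 10 between 46 and 47 Mb of chromosome 8. The 30 on chromosome 12 had a median repeat length of 188.9 bp, and 97.9% of their points had a single-copy centre. By chromosome, tandem arrays were most frequent on chromosomes 12 (40), 19 (33), 7 (25) and 16 (20).

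MUC17 was the case inside a protein. Its 5 points, chosen for display after the values were seen, all lay in the coding sequence, at chr7:101032155-101032873, and were 181, 178, 178 and 181 bp apart against a lag of 177 bp with 81.7% identity. Each step was thus 1 to 4 bp longer than the repeat unit. The most regular array, at chr19:24375696-24376731, had steps of 172, 173, 171, 174, 172 and 173 bp (172.5 bp ± 1.05), against a lag of 172 bp.

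**Figure D4:**
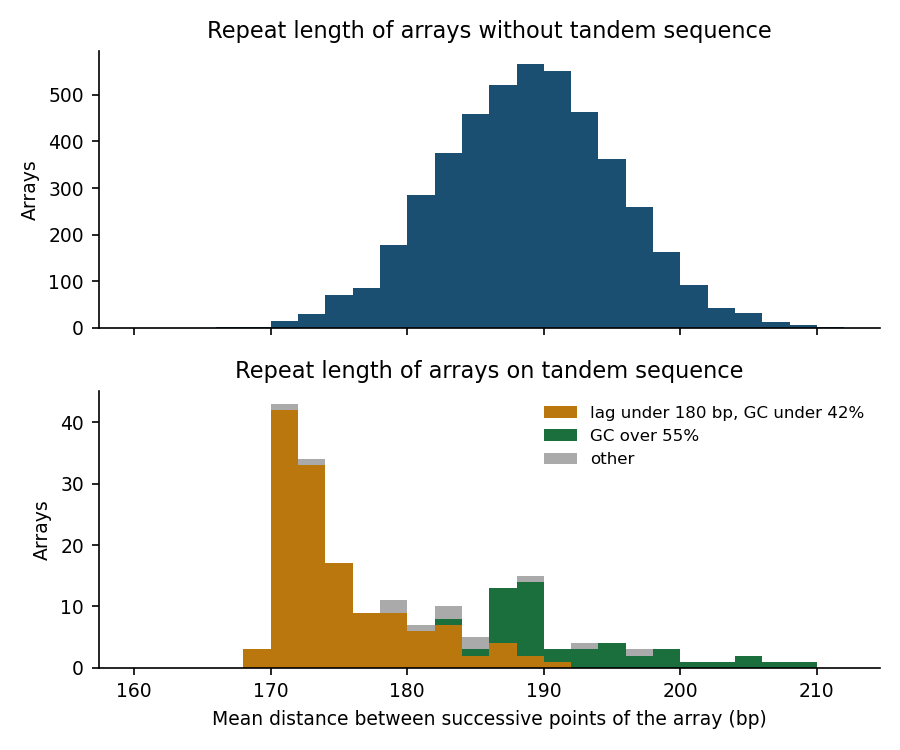
Histograms of the mean distance between successive points of an array, in 2-bp bins, for 4575 arrays without tandem sequence (top) and 190 with it (bottom, by lag and GC content). The top distribution centres on 188.8 bp, the AT-rich tandem arrays on 173.25 bp and the GC-rich ones on 189.6 bp.

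Base composition was not used to choose arrays and differed from that of other points. In the 147 bp around array points, G and C made up 53.4% ± 1.76 (SD, n = 22 chromosomes) of the bases, and around other points 49.0% ± 1.85, and the array value was higher on 21 of 22 chromosomes. It was 51.2% in runs of 3 or 4 points and 50.02% in runs of 2, so the GC content was higher in each longer class of run. The middle of linkers was also richer in GC in arrays, at 47.6% ± 1.51 against 41.9% ± 1.34 in runs of 2. The step from footprint to linker was therefore smaller in arrays, 5.83 percentage points ± 0.779 against 8.15 ± 0.518, and smaller on 22 of 22 chromosomes. CpG dinucleotides numbered 1.58 per 100 bp at array points and 1.29 at others.

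**Figure D5:**
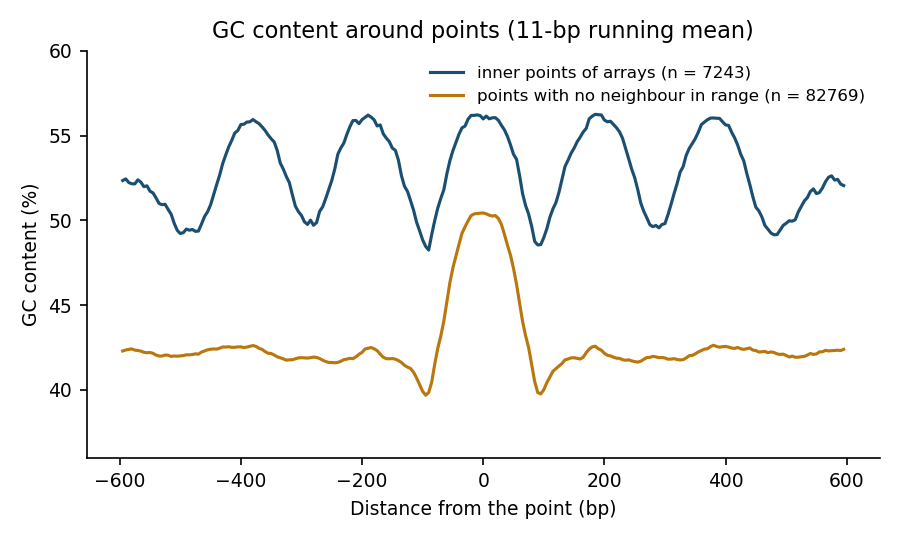
GC content in percent against distance from a point, as an 11-bp running mean, for 7243 inner points of arrays without tandem sequence and for 82769 points with no neighbour in range (every 20th such point). Around array points it alternates between 56.0% at the point, 48.6% at 95 bp and 56.2% at 190 bp. Around points with no neighbour in range it falls from 50.4% to 39.8% and returns only to 42.4%. The classes were chosen by the presence or absence of a point 160 to 220 bp away, so the difference near 190 bp is not independent of the rule.

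Arrays were placed against genes with the GENCODE 44 annotation. Of array points, 45.7% lay in the body of a protein-coding gene, 13.2% in another gene, 39.8% between genes and 1.26% in a promoter. Points outside arrays had 44.7, 16.3, 37.7 and 1.22%, and the determined bases 44.4, 16.2, 38.1 and 1.29%. The difference in the intergenic share was 2.08 percentage points (interval 1.50 to 2.67), but by chromosome it was 3.39 ± 7.26 points (SD, n = 22), smaller than its spread. It kept its sign, at 1.75 points, without the arrays of at least 70% identity to themselves (tandem sequence, described above). It turned to -0.787 points without those of at least 40% identity, a threshold chosen after the values were seen, to -0.205 points with distances of 170 to 210 bp and to -1.05 points when only protein-coding genes counted as genes. Exons held 3.85% of array points (interval 3.63 to 4.09%) against 2.71% of others, higher on 18 of 22 chromosomes. They made up 2.47% of the determined bases. Array points were also richer in GC, as given above, and the part of this in the exon share was not tested. Both intervals in this paragraph treat neighbouring points of an array as separate and are too narrow. A 32-base centre that occurs once in the reference was present at 90.4% of array points against 85.4% of others, higher on 21 of 22.

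Along protein-coding genes of at least 20 kb, each divided into 10 equal parts, 0.972% of points were in arrays in the first part and 1.40% in the last. Arrays were unevenly shared among genes. NTRK3, a neurotrophin receptor, held 16 arrays over 397 kb, CCDC33 held 14 over 134 kb, CAMTA1, a transcription factor, 13 over 984 kb, and GABBR2, a subunit of the GABA-B receptor, 12 over 421 kb. LINGO1, a membrane protein of neurons, also held 12, over 208 kb. Called points were dense at some of these genes. The 1-Mb windows at 74 and 88 Mb of chromosome 15, which hold CCDC33 and part of NTRK3, had 1.91 and 2.18 points per kb. Chromosome 15 as a whole had 1.02. Array counts per gene were not set against the local density of points, so they are not shown to be a trait of these genes. In all, 1504 of 19103 protein-coding genes (7.87%) overlapped an array.

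Start sites had few arrays beside them. With 1 start site per gene, 53 of 19111 (0.277%) had an array point 1 to 1000 bp downstream (interval 0.212 to 0.363%). Upstream the count was 66 (0.345%, interval 0.272 to 0.439%), which overlaps the downstream interval, and 29 had both. In windows of the same size 5001 to 6000 bp away, the shares were 0.534% downstream and 0.492% upstream. The list held 14272 points of any kind up to 1000 bp downstream and 13853 at 1000 to 2000 bp. Of these, 1.12% (interval 0.961 to 1.31%) lay in arrays in the nearer window and 2.19% (1.96 to 2.45%) in the farther one. These 2 intervals count points singly although array points come in groups, so they are too narrow. Upstream the shares were 1.22 and 1.76%. Points were thus about as many near the start as farther in, and fewer of them were in arrays. The start sites with arrays were poor in CpG. Of the 90 with an array point within 1000 bp on either side, 24 (26.7%, interval 18.6 to 36.6%) were CpG-rich (GC of 55% or more over 500 bp, with CpG at 0.65 or more of the frequency its bases predict), against 63.4% of all start sites.

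The 12 genes described next had a point 50 to 250 bp downstream of the start and the most points on the transcribed side. INS and INS-IGF2 share a start site and had 13 points downstream, the most of any. THPO had 12 points from 1105 bp upstream to 1023 bp downstream, with 6 on each side. PRR30 had 8 points from 241 bp upstream to 1108 bp downstream, with a mean distance of 192.7 bp ± 8.86. TMEM210 and ENSG00000261793, which overlap, share 1 array of 7 points, of which 6 were downstream of either start. ASIC4, an acid-sensing ion channel, had 6 of its 9 points downstream, and S100A8, a calcium-binding protein of neutrophils, 5 of 9, from 624 bp upstream to 870 bp downstream. In all of these but INS and INS-IGF2, the array had points on both sides of the start site. The rule itself admits no distance over 220 bp within an array. ANKRD33, SFTA2, a surfactant-associated protein, SCGB1C1, a secretoglobin, and BPIFB2 completed the 12. In SFTA2 and ANKRD33 all 5 points were downstream, the first at 167 and 187 bp.

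Gene lists are described by counts, beside the 7.87% of all protein-coding genes whose body holds an array. Of 44 genes of the pigment epithelium, 3 overlapped an array. CLDN19, a claudin of tight junctions, had 5 points with a mean distance of 197.0 bp ± 18.8, all in exons outside coding sequence. LHX2, a LIM-homeobox factor of eye development, had 5 points at 194.25 bp ± 14.6. SLC16A8, the lactate transporter of the pigment epithelium, had 5 points at 196.75 bp ± 9.88, of which 1 was in the gene. RPE65, BEST1, MITF and the rest of that list had none. Of 30 chromatin genes, CTCF, SMARCA5 and CHD1 among them, none did, although their median length of 76.9 kb exceeds the 27.9 kb of all genes. None of the 86 cytosolic and 78 mitochondrial ribosomal protein genes and none of the 39 HOX genes overlapped one, and these are shorter genes, with medians of 5.80, 11.9 and 4.22 kb. Of 414 olfactory receptor genes 1 did, OR51D1, and of 497 genes named ZNF 13 did. Of 55 keratin genes 4 did (KRT35, KRT36, KRT77 and KRT83), and the array at KRT83 had 8 points at 192.4 bp ± 11.3, of which 2 were in the gene. No gene of the pigment epithelium or chromatin lists had an array point within 1000 bp downstream of its start, against 0.277% of all protein-coding genes. With so low a share, a count of 0 in lists of 44 and 30 genes says little about these genes.

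Matches to the CTCF consensus were counted in the arrays with 200 bp on either side, on both strands. Binding was not measured. There were 76 matches in 6.05 Mb, or 12.6 per Mb, which is 3.28 times the 3.82 per Mb of the whole genome. The same ratio was 2.67 for runs of 3 or 4 points and 2.32 for runs of 2, and it was above the chromosome's own density on 15 of 22 chromosomes. Without the flanking bases it was 1.70, so the density of matches was lower between the first and last point than beside them. The rule itself bears on this contrast. Around all matches, points outside arrays were most frequent at -160 to -141 bp (1301) and 140 to 159 bp (741). Points at those places are more than 220 bp apart, so without a point between them a run ends there by construction. The value without flanks was not computed for shorter runs. Arrays were richer in GC than runs of 2, as given above, and the part of this in the ratio was not tested. Only 75 arrays (1.57%, interval 1.26 to 1.97%) had a match.

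Seen from the motif, 78 of 10542 matches (0.740%) had an array point within 250 bp. The same share for other positions was not computed. In 27 the match lay inside the array, in 51 an array lay on 1 side, and in none did separate arrays lie on both sides. Pairs of arrays this close are rare in the whole list, as given above, so this absence says little about the motif. These counts also cover only unbroken runs of 5 or more points. Over all matches together, points outside arrays had repeated maxima on both sides. They stood at -340 to -321 bp (677), -160 to -141 bp (1301), 140 to 159 bp (741) and 320 to 339 bp (415). Between them there were 92 at -280 to -261 bp and 92 at 260 to 279 bp. The one-sided match with the most points beside it was at chr11:192173-192184 on the plus strand, in BET1L, with a 10-point array whose first point was 136 bp to the right and which runs across the start of SCGB1C1. It is shown at chr11:192133-192384 with the matching bases in capitals.
CTCF match: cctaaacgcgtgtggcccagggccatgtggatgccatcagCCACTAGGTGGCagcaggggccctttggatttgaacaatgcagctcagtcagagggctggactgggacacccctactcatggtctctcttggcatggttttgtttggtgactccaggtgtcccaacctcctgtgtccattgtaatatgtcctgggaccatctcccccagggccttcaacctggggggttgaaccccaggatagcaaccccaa
The 10 points had a mean distance of 178.8 bp ± 16.5. Next in number were matches with 8 points beside them on chromosomes 1 and 14, and then 7 points beside a match in COL27A1, a collagen gene, with the nearest point 157 bp away.

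Along the genome the arrays were clustered. Of 2765 windows of 1 Mb, 1288 (46.6%) held no array point, and the tenth of windows richest in array points, a ranking by the arrays themselves, held 52.6% of array points and 15.8% of all points. The window at 34 Mb of chromosome 12 had 319 array points, 34.9% of its points, and that at 24 Mb of chromosome 19 had 135, or 23.4%. Elsewhere the share within the richest windows was lower, such as 155 points (8.12%) at 74 Mb of chromosome 15 and 129 (9.10%) at 2 Mb of chromosome 11, which holds INS. When windows were put in 4 equal classes by their points per kb, 0.365, 0.443, 0.907 and 2.11% of points lay in arrays, from the sparsest class to the densest. These classes ran from 0.447 to 1.23 points per kb, and denser points lie closer together, so more distances can fall in range. The mean over orders was not computed by class. By chromosome the share ran from 0.412% on chromosome 13 to 2.15% on chromosome 15. Chromosome 15 also had the lowest ratio to the mean over orders, 2.64.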

How the data were processed

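The authors deposited a single interval list for both samples. Every row is a single-base position with no score, so the deposited values are positions only (unit: other). Per the submitters' processing notes, Bowtie2 and hg38 (GRCh38) were used. The caller, its thresholds, the treatment of reads with several matches and the pooling of batches are not given in the sources used here, nor is the meaning of the numbers 120, 180 and 2 that the list's name carries.

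Duplicate rows were dropped and positions under 100 bp apart were merged, in a chain, into the midpoint of first and last. Arrays were maximal runs of at least 5 points with all distances from 160 to 220 bp. The mean over all orders has a closed form and was tested by full enumeration of small sets of distances. Run finding and merging were tested on made-up positions. No test across samples was possible. Intervals are 95% Wilson intervals, which cover counting error only, and an SD is over 22 chromosomes, which are not replicates. Intervals on shares of points treat points of the same array as separate and are therefore too narrow. GENCODE 44 gave genes, with 1 start site per gene. Exons are those of the MANE Select or canonical transcript. Copy number was the number of exact matches of the central 32 bases in the reference on either strand. CTCF matches are of a 12-letter consensus.

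The arrays and gene lists were chosen with earlier results of these data known. Named arrays are the 10 with the most points (ties by smaller SD), and the 12 genes whose array has a point 50 to 250 bp downstream of the start and most points downstream. The sequence beside a CTCF match was planned for arrays on both sides; as there was none, the one-sided match with most points was taken. Alternatives were tried for merging, distance range, minimum points, chromosomes, genes and flanks. Python 3.11.15, numpy 2.4.6, pandas 2.3.3, scipy 1.17.1, numba 0.67.0 and matplotlib 3.10.9 were used.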

Additional observations from a re-analysis of the deposited data

Results flagged for a closer look

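Chromosome X and the unplaced and alternate sequences were not part of the comparisons above, and arrays were found there as well. Chromosome X held 25 arrays, with 131 of its 68571 points (0.191%), a longest run of 7 points and a median repeat length of 186.25 bp. The mean over all orders of its distances was 2.79 arrays. A further 12 sequences held 4 arrays, with 21 of their 976 points (2.15%).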

How the results depend on the processing

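No paired analysis was possible because the series has 1 group and 1 list with no column per sample. Over 9 results, 79 alternative values were computed: 49 stayed within the set limits, 27 moved beyond them and 3 changed sign. The cause was not tested except where stated.

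The number of arrays was 2236 with distances of 170 to 210 bp, 14723 with at least 4 points and 675 with at least 7, as those rules are stricter or looser by construction. The share of points in arrays was 0.688% without merging, 1.12% and 1.05% with merging under 60 and 140 bp, and 1.07% with the first position kept. It was 0.546% with distances of 170 to 210 bp, 1.74% with 150 to 230 bp, 2.94% with at least 4 points and 0.234% with at least 7. It was 1.15% with chromosome X, 1.10% without chromosomes 9 and 15, and 1.13% without arrays of at least 40% identity, an alternative added after the data were seen. The ratio to the mean over orders was 5.63 with 170 to 210 bp, 2.11 with at least 4 points, 22.9 with at least 7, 2.92 within 1-Mb windows and 2.29 within 100-kb windows. The repeat length moved only without merging, to 187.4 bp. It was 188.5 to 189 bp under the other alternatives.

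The intergenic difference changed sign with 170 to 210 bp (-0.205 points), without tandem arrays of 40% identity (-0.787) and with protein-coding genes only (-1.05). The share of start sites with an array downstream was 0.183% with 170 to 210 bp and 0.0837% with at least 7 points. The CTCF ratio was 4.36 with at least 7 points and 1.70 without flanks. The GC step was 5.03 points with at least 7 points. Tandem arrays numbered 69 at 60% identity and 190 at 40%. Leaving out chromosome 12, also added later, moved none of the 4 results recomputed for it.

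The read depth is unknown, so a missing point can be a missing call, and a break in an array cannot be told apart from a nucleosome that was not called.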
